A study of Mus musculus with 7 samples.

Results

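Retinoic acid signalling was examined through 9 genes that make the hormone, carry it inside the cell, read it in the nucleus and break it down: Aldh1a1, Aldh1a2, Aldh1a3, Crabp1, Crabp2, Rarb, Rarg, Cyp26a1 and Cyp26b1. The genes were chosen by name for their place in this pathway, with earlier results of these data known. They are 9 of the 55423 rows of the count table. All 9 were among the 24433 genes tested, whose count reached 5 in 1 tumour or more. The data are bulk RNA sequencing of mouse cutaneous squamous cell carcinoma (cSCC), a skin cancer of keratinocytes. In both groups BRAFV600E, an oncogene that drives MAPK signalling, was switched on in the skin by topical tamoxifen through Ivl-CreERT2, a Cre recombinase driven by the involucrin promoter, which marks keratinocytes committed to differentiation. The Ivl:BRAFV600E-SOX2LSL group also carried a Rosa26 allele that makes SOX2, a stem-cell transcription factor, together with eGFP after recombination. The mice were C57BL/6J, aged 7 to 10 weeks at induction according to the sample labels, and the tumours were collected at clinical endpoint. In each group 3 tumours from separate mice were compared, and they are numbered here in the order of the table's columns only to name them. Every Ivl:BRAFV600E-SOX2LSL tumour was collected sooner after induction than every Ivl:BRAFV600E tumour, so time since induction and genotype cannot be told apart. Normal skin was not analysed here, and all comparisons are between tumours that express BRAFV600E.

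Retinol is taken up by cells, stored as esters and oxidised to retinaldehyde by short-chain dehydrogenases. The ALDH1A enzymes then turn retinaldehyde into retinoic acid, CRABP1 and CRABP2 bind it in the cytoplasm, and the retinoic acid receptors (RAR), paired with retinoid X receptors (RXR), switch genes on or off at repeated hexamers in DNA. CYP26 enzymes oxidise retinoic acid for removal. In the epidermis this hormone is known for its control of keratinocyte differentiation, and its receptors are the targets of drugs used on skin.

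Promoter sequences are shown first for the members whose windows held a pair of receptor hexamers, because Rarb and Cyp26a1 are classical genes through which retinoic acid adjusts its own level. The windows were RefSeq sequences on GRCm38.p6, from 250 bases before to 50 bases after a gene's start, and 7 of the 9 genes matched, in 9 windows. Aldh1a3 and Crabp2 were not matched. These starts are those of RefSeq and differ from the ends of the GENCODE genes whose coordinates are given with the values further on. The Rarb window (chr14:16575427-16575726) lies inside the longer GENCODE gene, and the Cyp26a1 window (chr19:37697558-37697857) spans the GENCODE start. On both strands, 4 hexamers were searched, which were AGGTCA along with the variants AGTTCA as well as GGGTCA and finally the variant GGTTCA, in any pair, as direct repeats with a spacer of 1, 2 or 5 bases. A repeat with a spacer of 5 bases was present in the windows of 2 members, and in 0.0974% of all 32851 windows. The repeat of Rarb lay at chr14:16575513-16575529 and began 53 bases before the RefSeq start of its window, on the strand of the gene. The repeat of Cyp26a1 lay at chr19:37697776-37697792 and began 32 bases before the RefSeq start of its window, on the strand opposite to the gene. They are printed 5′ to 3′ on the strand that holds the repeat, with 6 flanking bases on each side and the hexamers in capitals:
Rarb: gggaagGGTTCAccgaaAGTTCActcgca
Cyp26a1: caaattAGTTCAcccaaAGTTCAtcttta
Single hexamers of the same 4 kinds occurred in 43.7% of all windows, repeats with a spacer of 1 base in 0.222% and repeats with a spacer of 2 bases in 0.268%. A match describes letters only, and binding was not measured here.

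The libraries held between 23565432 and 31152826 counts on genes, and 3 counts, taken as the smallest level that can be told from 0, corresponded to between 0.0839 and 0.143 CPM (counts per 1 M after TMM scaling). This floor covers counting error only. Sox2 read 0.716, 0.508 and 0.238 CPM in the Ivl:BRAFV600E tumours and 182, 155 and 158 CPM in the Ivl:BRAFV600E-SOX2LSL tumours, as the labels state. The keratinocyte genes Krt5, Krt14 and Trp63 were present in all 6 tumours with overlapping groups. The other keratinocyte genes listed did not overlap, with Krt1 and Krt10 lower and Cdh1 higher in Ivl:BRAFV600E-SOX2LSL tumours, as given further on. In the comparison of the groups (edgeR quasi-likelihood test, Benjamini-Hochberg adjustment over all tested genes), 3.9% of tested genes had an adjusted p below 0.05, 2.39% higher and 1.51% lower in Ivl:BRAFV600E-SOX2LSL tumours. Of the 9 retinoid genes 1 passed, Crabp2, which was lower. At an unadjusted p below 0.05 there were 4 of the 9, beside 25.7% of all tested genes. The median log2 fold change of the 9 was 0.24, and that of all tested genes was 0.04.

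**Figure D1:**
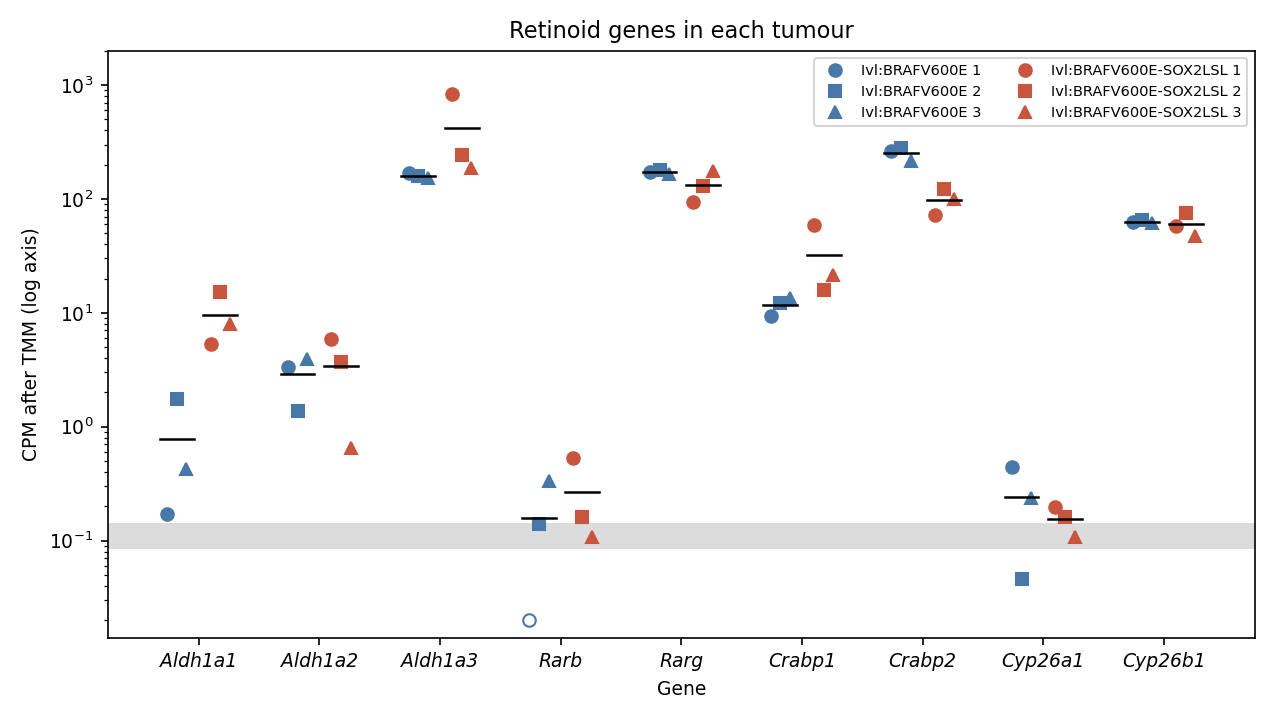
CPM (log scale) of the 9 retinoid genes in each tumour, with Ivl:BRAFV600E and Ivl:BRAFV600E-SOX2LSL tumours side by side; shapes give the tumour number, horizontal bars are group means of 3 tumours, the grey band spans the level of 3 counts over the libraries and the open circle is 0 counts. Crabp2 is lower and Aldh1a1, Aldh1a3 and Crabp1 are higher in every Ivl:BRAFV600E-SOX2LSL tumour, while Rarb and Cyp26a1 lie at or near the band.

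Crabp2 (ENSMUSG00000004885, chr3:87948666-87953376 on GRCm38, plus strand) makes the binding protein that delivers retinoic acid to its receptors. It had 262, 279 and 217 CPM in the Ivl:BRAFV600E tumours and 72.4, 123 and 101 CPM in the Ivl:BRAFV600E-SOX2LSL tumours. The lowest Ivl:BRAFV600E tumour lay well above the highest Ivl:BRAFV600E-SOX2LSL tumour. The means were 253 ± 32.4 and 98.6 ± 25.2 CPM (SD, n = 3 each), and the level fell by 1.36 on the log2 scale (standard error 0.21, 95% interval -1.86 to -0.85, edgeR adjusted p = 0.0271), which is 2.56-fold lower. The direction was the same in all 13 alternative fits, with adjusted p between 2.64e-06 and 0.126. The call was lost when sex was a covariate (log2 fold change -1.29, adjusted p = 0.0733, in a fit that called 0.933% of all tested genes), and in 4 of 6 fits with a tumour removed, those without Ivl:BRAFV600E tumour 1, 2 or 3 (adjusted p = 0.126, 0.0955 and 0.0626) and without Ivl:BRAFV600E-SOX2LSL tumour 3 (adjusted p = 0.0625). Those 4 fits called 22, 50, 179 and 412 genes in all, where the main fit called 954. In bulk tumours, fewer cells that express a gene and less RNA per cell cannot be told apart.

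Crabp1 (ENSMUSG00000032291, chr9:54764748-54773110, plus strand) makes the other cytoplasmic retinoic acid binder, which is known to bring the hormone to the enzymes that break it down. It had 9.34, 12.2 and 13.5 CPM in the Ivl:BRAFV600E tumours and 59.0, 15.8 and 21.5 CPM in the Ivl:BRAFV600E-SOX2LSL tumours. The groups did not overlap, with Ivl:BRAFV600E-SOX2LSL tumour 1 far above the rest and tumour 2 just above the highest tumour of the other group. Its log2 fold change of 1.46 (standard error 0.48, 95% interval 0.33 to 2.59) did not pass in edgeR (adjusted p = 0.121). Without Ivl:BRAFV600E-SOX2LSL tumour 1 the log2 fold change was 0.67 (adjusted p = 0.122). DESeq2 gave an adjusted p of 0.0230, in a fit that called 15% of all tested genes.

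The levels of both binders can be compared approximately within a tumour once divided by exon length (RPKM, which is CPM per kilobase of exon). The length counts all annotated exons of a gene together and can exceed that of its transcripts. The RPKM of Crabp2 was 17.0, 13.8 and 9.74 times that of Crabp1 in the Ivl:BRAFV600E tumours, and 0.745, 4.71 and 2.84 times in the Ivl:BRAFV600E-SOX2LSL tumours. Crabp2 was thus the more abundant of the pair in 5 of the 6 tumours, and the exception was Ivl:BRAFV600E-SOX2LSL tumour 1. Crabp1 made up 5.56%, 6.74% and 9.31% of the summed RPKM of the pair in the Ivl:BRAFV600E tumours and 57.3%, 17.5% and 26.1% in the Ivl:BRAFV600E-SOX2LSL tumours. The sum itself was 210, 227 and 181 RPKM against 128, 112 and 103 RPKM, so it was lower in each Ivl:BRAFV600E-SOX2LSL tumour even though Crabp1 read higher. These ratios and sums are descriptions and were not tested.

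**Figure D2:**
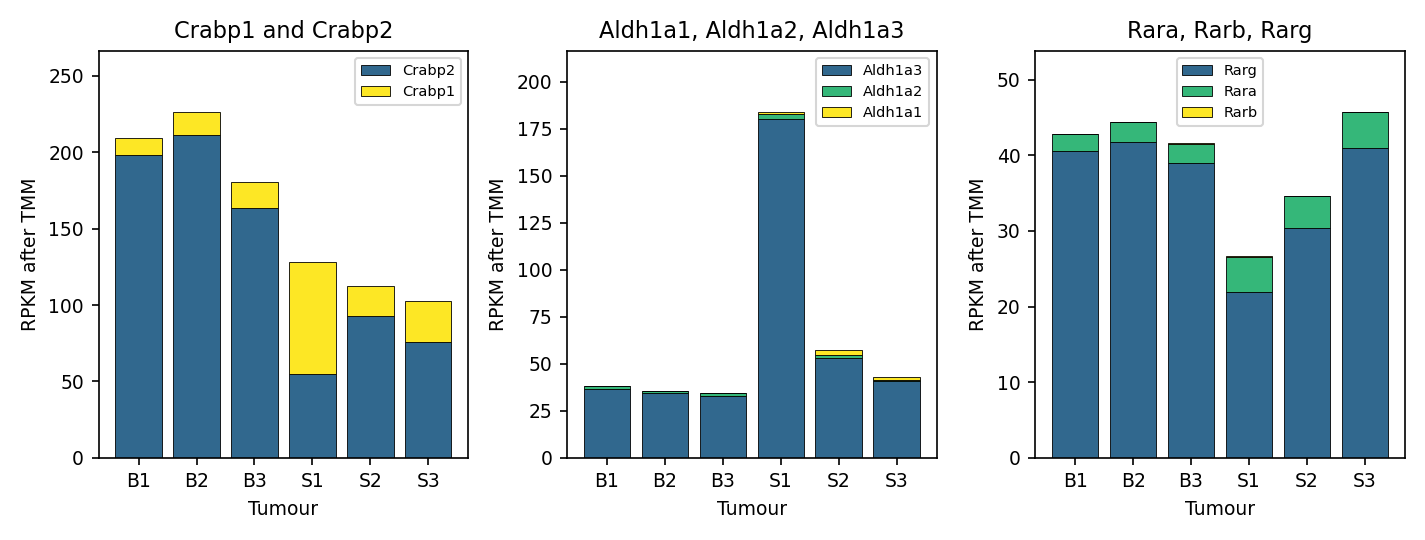
RPKM (linear axis from 0) of the CRABP, ALDH1A and RAR families, stacked by gene, 1 bar a tumour (B1 to B3 are Ivl:BRAFV600E and S1 to S3 are Ivl:BRAFV600E-SOX2LSL). Aldh1a3 and Rarg make up most of their families in all 6 tumours, Crabp1 takes 57.3% of its bar in S1, and Rarb is too low to be seen.

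Aldh1a3 (ENSMUSG00000015134, chr7:66390890-66427517, minus strand), 1 of 3 enzymes that make retinoic acid from retinaldehyde, was the most abundant of them in every tumour. It had 168, 160 and 151 CPM in the Ivl:BRAFV600E tumours and 832, 244 and 189 CPM in the Ivl:BRAFV600E-SOX2LSL tumours. The Ivl:BRAFV600E tumours lay close together, and each Ivl:BRAFV600E-SOX2LSL tumour lay above them, tumour 1 by far the most. The means were 160 ± 8.59 and 422 ± 357 CPM (SD, n = 3 each). The log2 fold change of 1.40 (standard error 0.53, 95% interval 0.15 to 2.65) did not pass (edgeR adjusted p = 0.158), and it was 0.43 without Ivl:BRAFV600E-SOX2LSL tumour 1 (adjusted p = 0.114). With DESeq2 the adjusted p was 0.0440.

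Aldh1a1 (ENSMUSG00000053279, chr19:20492715-20643465, plus strand), the related dehydrogenase often used as a marker of stem-like cells, was low in the Ivl:BRAFV600E tumours, with 5, 38 and 9 counts, and had 191, 471 and 222 counts in the Ivl:BRAFV600E-SOX2LSL tumours. In CPM these are 0.171, 1.76 and 0.428 against 5.34, 15.3 and 8.02. The groups did not overlap, and the tumours of each genotype were spread widely among themselves. The log2 fold change was 3.62 (standard error 0.82, 95% interval 1.70 to 5.55), a fitted fold of 12.3, and the edgeR adjusted p of 0.0567 narrowly missed the threshold. It was the largest log2 fold change of the 9 genes, and it was 5.03 without Ivl:BRAFV600E tumour 2, the one with 38 counts (adjusted p = 0.0595). The adjusted p was below the threshold in 4 of 13 alternatives, at 4.5e-05 with DESeq2, 0.0175 with limma voom, 0.0204 with no filter on low counts and 0.0337 without Ivl:BRAFV600E-SOX2LSL tumour 1, and the highest over all 13 was 0.166.

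Aldh1a2 (ENSMUSG00000013584, chr9:71215789-71296243, plus strand), the dehydrogenase that makes most retinoic acid in the early embryo, had 3.34, 1.39 and 3.94 CPM in the Ivl:BRAFV600E tumours and 5.90, 3.69 and 0.650 CPM in the Ivl:BRAFV600E-SOX2LSL tumours. The groups overlapped throughout, and the highest and the lowest of the 6 values both belonged to Ivl:BRAFV600E-SOX2LSL tumours. The log2 fold change was 0.24 (95% interval -1.47 to 1.96, edgeR adjusted p = 0.863), and its sign turned with the tumours included.

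Summed per length, the 3 dehydrogenases came to 38.0, 35.6 and 34.6 RPKM in the Ivl:BRAFV600E tumours and to 184, 57.5 and 42.8 RPKM in the Ivl:BRAFV600E-SOX2LSL tumours. Aldh1a3 gave 94.7% to 97.3% of this sum in the Ivl:BRAFV600E tumours and 91.8% to 98.0% in the Ivl:BRAFV600E-SOX2LSL tumours. Aldh1a1, despite its large ratio between groups, gave 0.0909%, 0.997% and 0.251% of the sum in the Ivl:BRAFV600E tumours and 0.588%, 5.37% and 3.8% in the Ivl:BRAFV600E-SOX2LSL tumours. The share of Aldh1a1 in Ivl:BRAFV600E-SOX2LSL tumour 1 was below that in Ivl:BRAFV600E tumour 2.

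**Figure D3:**
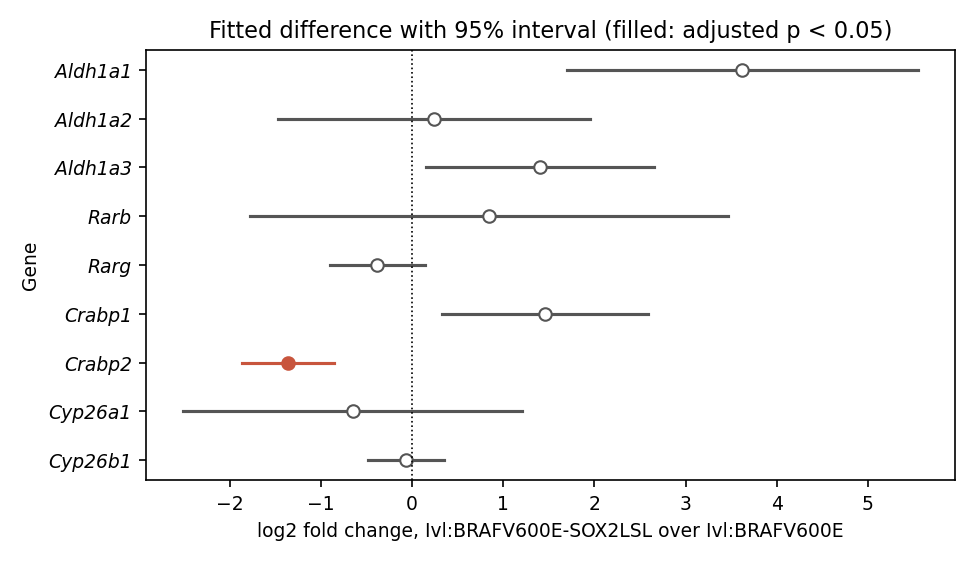
Fitted log2 fold change of each retinoid gene, Ivl:BRAFV600E-SOX2LSL over Ivl:BRAFV600E (points), with its 95% interval (lines) from edgeR; the filled point has an adjusted p below 0.05. Crabp2 at -1.36 is the filled point, and the intervals of Aldh1a2, Rarb, Rarg, Cyp26a1 and Cyp26b1 include 0.

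Rarg (ENSMUSG00000001288, chr15:102234938-102257517, minus strand), the main retinoic acid receptor of the epidermis, had 173, 178 and 166 CPM in the Ivl:BRAFV600E tumours and 93.5, 129 and 175 CPM in the Ivl:BRAFV600E-SOX2LSL tumours. The Ivl:BRAFV600E tumours were within a narrow range, and Ivl:BRAFV600E-SOX2LSL tumour 3 lay inside it while the others were lower. Its log2 fold change was -0.38 (standard error 0.22, 95% interval -0.90 to 0.14, edgeR adjusted p = 0.318).

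Rarb (ENSMUSG00000017491, chr14:16430839-16819156, minus strand), the receptor that retinoic acid itself induces in many cells, had 0, 3 and 7 counts in the Ivl:BRAFV600E tumours and 19, 5 and 3 counts in the Ivl:BRAFV600E-SOX2LSL tumours. In 3 of the 6 tumours it was at or under the floor of 3 counts, and the groups overlapped. A log2 fold change of 0.85 had a 95% interval of -1.77 to 3.47 (edgeR adjusted p = 0.668), so no difference was detectable at this depth. Of its 5265 exonic bases, 1793 overlap exons of Top2b on the opposite strand, which had 4689 to 6903 counts per tumour, and the strand setting of the counting is not given in the sources used here. The values of Rarb are therefore uncertain, and the promoter repeat printed above belongs to a gene with almost no reads in these tumours.

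Rara, which belongs to the wider pathway list described below, completes the receptor family and was the member of the family that passed. It had 9.69, 11.2 and 10.9 CPM in the Ivl:BRAFV600E tumours and 20.2, 18.8 and 20.7 CPM in the Ivl:BRAFV600E-SOX2LSL tumours. The groups were tight and far apart, and the level rose by 0.91 on the log2 scale (standard error 0.14, edgeR adjusted p = 0.0268), a call that held in 1 of 6 fits with a tumour removed. Per length, Rarg still made up 94.8%, 94.2% and 93.9% of the receptor sum in the Ivl:BRAFV600E tumours and 82.3%, 87.5% and 89.6% in the Ivl:BRAFV600E-SOX2LSL tumours, with Rara at 5.18% to 6.0% and at 10.4% to 17.3%.

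Cyp26b1 (ENSMUSG00000063415, chr6:84571414-84593908, minus strand), a cytochrome that clears retinoic acid in skin, had 63.0, 65.5 and 61.2 CPM in the Ivl:BRAFV600E tumours and 58.4, 75.3 and 47.2 CPM in the Ivl:BRAFV600E-SOX2LSL tumours. The Ivl:BRAFV600E-SOX2LSL tumours lay on both sides of the others. Its log2 fold change was -0.07 with a 95% interval of -0.49 to 0.35 (edgeR adjusted p = 0.843), the narrowest interval among the 9 genes.

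Cyp26a1 (ENSMUSG00000024987, chr19:37697798-37701536, plus strand), the cytochrome most readily induced by retinoic acid, had 13, 1 and 5 counts in the Ivl:BRAFV600E tumours and 7, 5 and 3 counts in the Ivl:BRAFV600E-SOX2LSL tumours. All 3 Ivl:BRAFV600E-SOX2LSL values fell inside the range of the other group. A log2 fold change of -0.65 was fitted (95% interval -2.51 to 1.21, edgeR adjusted p = 0.639), and no difference was detectable at these counts. Cyp26b1 made up between 95.2% and 99.6% of the summed RPKM of Cyp26a1, Cyp26b1 and Cyp26c1 (the last from the pathway list) in every tumour.

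Ordered by mean RPKM, the Ivl:BRAFV600E tumours had Crabp2 (191 ± 24.5, SD, n = 3), Rarg (40.5 ± 1.40), Aldh1a3 (34.6 ± 1.86), Crabp1 (14.6 ± 2.65), Cyp26b1 (11.8 ± 0.400), Aldh1a2 (1.28 ± 0.591), Aldh1a1 (0.159 ± 0.172), Cyp26a1 (0.122 ± 0.100) and Rarb (0.0298 ± 0.0317). The ranges of Crabp1 and Cyp26b1 overlapped, as did those of Aldh1a1, Cyp26a1 and Rarb, so the order within these is not beyond the spread. In the Ivl:BRAFV600E-SOX2LSL tumours the order was Aldh1a3 (91.3 ± 77.3 RPKM), Crabp2 (74.6 ± 19.0), Crabp1 (40.0 ± 29.2), Rarg (31.1 ± 9.54), Cyp26b1 (11.3 ± 2.64), Aldh1a1 (1.93 ± 1.04), Aldh1a2 (1.51 ± 1.16), Cyp26a1 (0.0784 ± 0.0222) and Rarb (0.0508 ± 0.0438). The first place of Aldh1a3 rested on tumour 1 (180 RPKM, beside 54.8 for Crabp2), and in tumours 2 and 3 Aldh1a3 (52.8 and 40.9 RPKM) was below Crabp2 (92.8 and 76.1 RPKM). The first 4 overlapped with their neighbours, and so did Aldh1a1 with Aldh1a2 and Cyp26a1 with Rarb. In both groups the abundant genes comprised 1 dehydrogenase, both binders, Rarg and Cyp26b1.

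Of the 9 genes, 3 were higher and 1 lower in all Ivl:BRAFV600E-SOX2LSL tumours without overlap, and 5 overlapped. Among all tested genes, 34.2% did not overlap, 18.2% higher and 16% lower.

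The rest of the pathway was read from a list of 61 other genes, of which 53 were tested. Of these, 5 passed (4 higher and 1 lower in the Ivl:BRAFV600E-SOX2LSL tumours), which is 9.43% of the list beside 3.9% of all tested genes. The list was chosen with earlier results of these data known, so the shares given here are no test of it. The median log2 fold change of the 53 was 0.32. It was 0.26 when Rbp4 and Rpe65, with no Ivl:BRAFV600E tumour above 3 counts, were set at values computed from that level. For Rpe65 (0 counts in each Ivl:BRAFV600E tumour and 10, 0 and 0 in the Ivl:BRAFV600E-SOX2LSL tumours) this value was 0.73-fold. That is a decrease and no lower bound on a rise, so the 0.26 carries this limit. The genes that passed were 1 of 23 for synthesis and storage, 2 of 8 for uptake and carriers, 1 of 11 for receptors and cofactors, 0 of 2 for degradation and 1 of 9 known retinoic acid targets. By the edgeR test without adjustment, 22 of the 53 had a p below 0.05 (25.7% of all tested genes did), none of them for degradation, and DESeq2 called 19 of the 53 (15% of all tested genes).

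Rbp4, the carrier of retinol in blood, had 2, 0 and 0 counts in the Ivl:BRAFV600E tumours and 35, 38 and 30 counts in the Ivl:BRAFV600E-SOX2LSL tumours. It was at or near 0 in the former and low but present in each of the latter. The mean of the Ivl:BRAFV600E-SOX2LSL tumours was at least 8.59-fold higher than the mean level of 3 counts per library in the other group (edgeR adjusted p = 0.0266).

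Sdr16c6, a short-chain dehydrogenase related to the enzymes that oxidise retinol, had 107, 104 and 98.7 CPM in the Ivl:BRAFV600E tumours and 31.7, 54.3 and 45.9 CPM in the Ivl:BRAFV600E-SOX2LSL tumours. The groups were well apart, and it fell by 1.23 on the log2 scale (standard error 0.20, edgeR adjusted p = 0.0283). It was the gene of this list that passed in the same direction as Crabp2.

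Meis2, a homeobox gene that retinoic acid induces in the embryonic limb, had 4.50, 4.71 and 4.47 CPM in the Ivl:BRAFV600E tumours and 14, 11.9 and 15.2 CPM in the Ivl:BRAFV600E-SOX2LSL tumours. The level rose by 1.59 on the log2 scale (standard error 0.18, edgeR adjusted p = 0.0125). The groups were tight and well apart.

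These calls were kept to different degrees when a tumour was removed. Among 6 fits, each with a tumour removed, Meis2 was called in 4, Sdr16c6 in 2, and Rara and Rbp4 in 1 each. Those fits called between 22 and 1575 genes in all, where the main fit called 954. A lost call therefore does not by itself show dependence on the tumour removed. Over the 13 alternatives the log2 fold change was 1.49 to 1.68 for Meis2 and -1.41 to -1.04 for Sdr16c6. It was 0.81 to 0.95 for Rara and 4.68 to 7.92 for Rbp4. With sex as a covariate, 2 of the 53 genes passed, Meis2 among them (adjusted p = 0.0281).

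**Figure D4:**
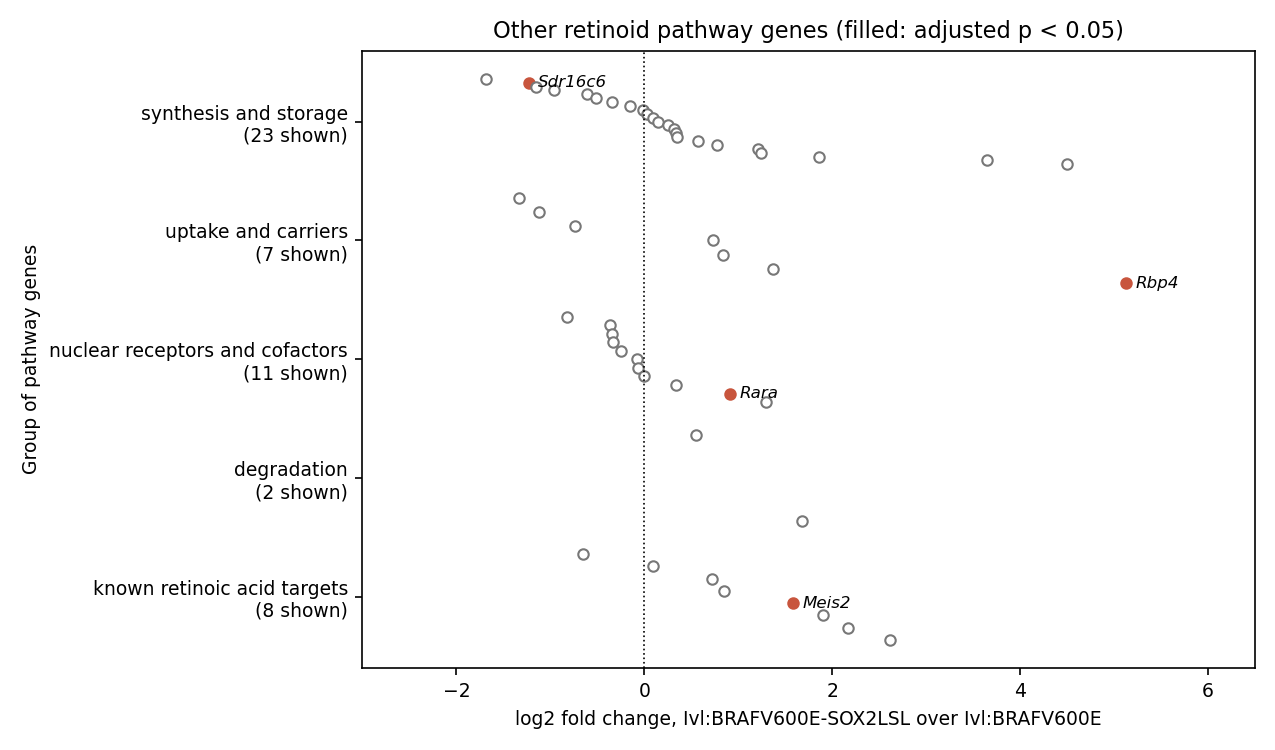
Log2 fold change of tested genes of the wider retinoid list (Ivl:BRAFV600E-SOX2LSL over Ivl:BRAFV600E) in 5 sets, 1 point a gene and not every gene shown; filled points have an edgeR adjusted p below 0.05. The filled points are Sdr16c6 below 0 and Rbp4, Rara and Meis2 above it; the values of Rbp4 and Rpe65 depend on the prior count, because no Ivl:BRAFV600E tumour had more than 3 counts.

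The genes whose profiles over the 6 tumours were most like that of Crabp2, by Euclidean distance between centred log2 CPM profiles and among genes with a mean of at least 1 CPM, were Fmnl2 (0.210), Spryd7 (0.225), Zfp711 (0.243), Tnnt2 (0.247) and Sdr16c6 (0.256). Sdr16c6 is the gene of the pathway list among them. For Aldh1a1 the nearest genes were farther away, namely Nos1 (1.30), Gm7897 (1.48), Cacng1 (1.51), Klhl40 (1.6) and Krt13 (1.62). Cacng1 and Klhl40 are known from skeletal muscle and Krt13 from the lining of the mouth and oesophagus.

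The summed levels of 6 of 14 cell type marker lists did not overlap between the groups, and those of the other 8 did. Krt10, a keratin of differentiating keratinocytes, had 28863, 36342 and 31849 CPM in the Ivl:BRAFV600E tumours and 425, 3994 and 7214 CPM in the Ivl:BRAFV600E-SOX2LSL tumours, a log2 fold change of -3.06 (edgeR adjusted p = 0.0935). Krt1, its partner, had 32201, 45416 and 44328 against 1010, 11874 and 13012 CPM (log2 fold change -2.24, adjusted p = 0.149). The Ivl:BRAFV600E-SOX2LSL tumour with the lowest Krt1 and Krt10, tumour 1, was also the one with the lowest Crabp2 and the highest Crabp1 and Aldh1a3. The same tumour had the highest sums of several other marker lists, with 34.3 CPM of mesothelial genes (1218 counts of Msln, 5 of Wt1 and 2 of Upk3b) beside 0.227 and 0.542 CPM in tumours 2 and 3, and 21.7 CPM of adipocyte genes beside 0.227 and 0.542 CPM. Its macrophage genes summed to 289 CPM beside 127 and 105 CPM, and its fibroblast genes to 8177 CPM beside 3891 and 4702 CPM. Cdh1, the epithelial cadherin, had 638, 667 and 651 against 916, 815 and 765 CPM, higher without overlap (log2 fold change 0.35, adjusted p = 0.175). Of the 6 keratinocyte genes listed (Krt1, Krt10, Krt5, Krt14, Trp63 and Cdh1), 0 passed, and their sum, most of which came from Krt1, Krt10 and Krt14, ranged from 77960 to 116637 CPM and from 11531 to 42055 CPM. The part of keratinocyte differentiation in the level of Crabp2 was not tested.

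**Figure D5:**
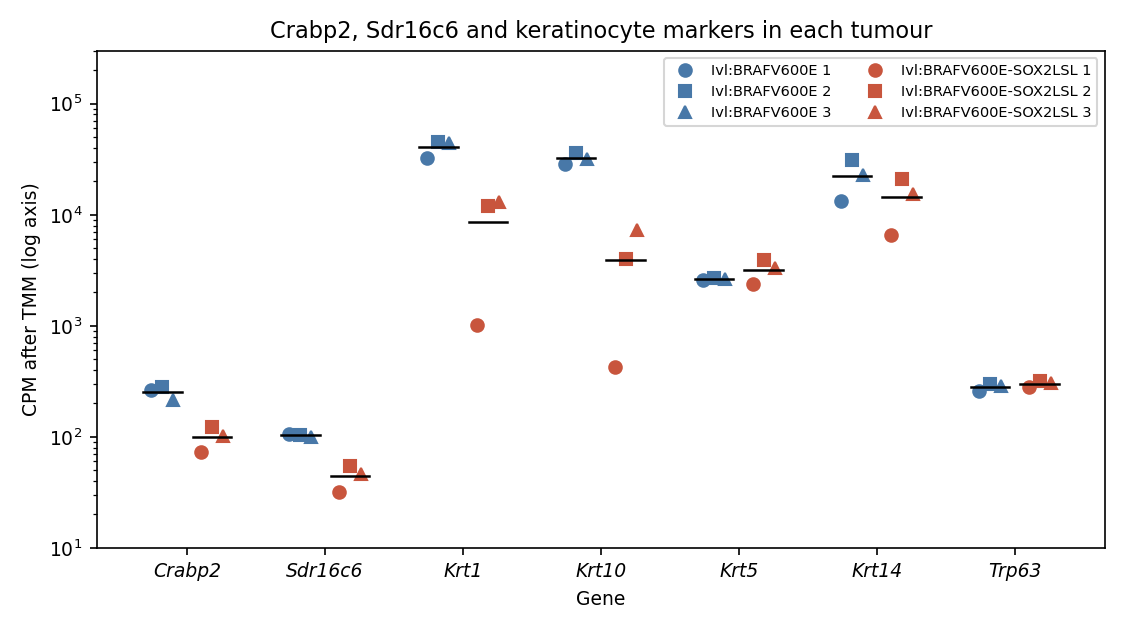
CPM (log axis) of Crabp2, Sdr16c6 and 5 keratinocyte genes, 1 point a tumour, with shapes for the tumour number, colours for the group and horizontal bars for the means of 3 tumours. Crabp2, Sdr16c6, Krt1 and Krt10 are lower in all 3 Ivl:BRAFV600E-SOX2LSL tumours, with tumour 1 the lowest in each, and the groups overlap for Krt5, Krt14 and Trp63.

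The sum of skeletal muscle genes was 0.955 to 2.90 CPM in the Ivl:BRAFV600E tumours and 186 to 859 CPM in the Ivl:BRAFV600E-SOX2LSL tumours, and 5 of 6 passed, all higher. By tumour, the Ivl:BRAFV600E-SOX2LSL sums were 792, 859 and 186 CPM, while Aldh1a1 had 5.34, 15.3 and 8.02 CPM in the same tumours. The sums of macrophage genes (38.7 to 72.1 against 105 to 289 CPM, 1 of 4 passed) and of sebocyte genes (107 to 264 against 325 to 570 CPM, 0 of 6 passed) were also higher without overlap, as were those of dendritic or Langerhans cell genes (6.55 to 7.22 against 8.10 to 30.9 CPM, 0 of 4 passed). Krt9, a keratin of palm and sole skin, was at 13.6, 390 and 378 CPM against 0.0280, 0.0972 and 0.0361 CPM, and passed as lower. The sum of fibroblast genes overlapped (726 to 5028 against 3891 to 8177 CPM), and so did those of hair follicle, dermal papilla, endothelial, melanocyte, Schwann cell, adipocyte and mesothelial genes. No marker was at 0 counts in all tumours. The part of these cells in the values of the retinoid genes was not tested.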

How the data were processed

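RNA of whole tumours was sequenced after ribosomal RNA depletion. The authors trimmed the reads with Trim Galore, aligned them to GRCm38 with HISAT2 (2.1.0), counted them per gene with featureCounts (Subread 1.6.3) and deposited raw counts per gene without normalisation. The table has 7 columns. Names and the study's list of mice tied 6 to a genotype, 3 per group, and 1 column was not used. Its name begins like the Ivl:BRAFV600E-SOX2LSL columns but matches no listed mouse, which gives 3 and 4 columns by name where the labels list 4 Ivl:BRAFV600E and 3 Ivl:BRAFV600E-SOX2LSL samples, so its genotype is uncertain. The listed sex matched the counts in 6 of 6 tumours, and log2 CPM correlated at 0.951 to 0.977 within groups. Genes whose count reached 5 in 1 tumour or more (24433) were scaled by TMM and tested with edgeR 4.0.16 (quasi-likelihood, genotype as the only factor, Benjamini-Hochberg at 0.05) in R 4.3.3, where the study used DESeq2 after the same filter. Log2 CPM used a prior count of 2. RPKM used exon lengths and coordinates of GENCODE M21, which is close to but not the release counted on, and carries that approximation. The length was that of all annotated exons of a gene together, which can exceed that of its transcripts. Shares, ratios and orders between genes carry this approximation too. The scripts were tested on simulated counts.

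Alternatives were DESeq2 1.42.0, limma 3.58.1 (voom with sample weights), DESeq2 size factors, upper-quartile scaling, no filter, filterByExpr, sex as a covariate and each tumour left out. For a single gene the smallest p of an exact permutation test (two-sided) is 0.1 at this group size, and none was used. The 9 genes, the pathway list and the cell type lists were chosen with earlier results of these data known. Genes named beyond the 9 were Sox2, the pathway genes with an adjusted p below 0.05 or, up to 6, the smallest p, and the 5 genes nearest in profile to the 2 members with the smallest p. Not every gene that this rule picks is reported here. Others, including Top2b, are named for the result they bear on, chosen after their values were seen.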

Additional observations from a re-analysis of the deposited data

How the results depend on the processing

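Of the 24433 tested genes 954 were called, and DESeq2 called 3653, limma voom 2142, edgeR with no low-count filter 1759 of 33568, with sex as a covariate 228, and with a tumour left out 22 of 23953 (without Ivl:BRAFV600E tumour 1) to 1575 of 23535 (without Ivl:BRAFV600E-SOX2LSL tumour 1). For the other pathway genes the count was 5 of 53, and 19 of 53, 13 of 53, 12 of 59 and 2 of 53 under the same alternatives and 0 of 53 to 11 of 52 with a tumour left out. The log2 fold change of Aldh1a1 passed with DESeq2 (3.61), limma voom (4.72) and no filter (3.63), and lay between 3.10 and 5.03 with a tumour left out. Aldh1a3 (1.39) and Crabp1 (1.45) passed with DESeq2. With limma voom they were smaller and did not pass, at 0.64 (adjusted p = 0.230) for Aldh1a3 and 0.88 (adjusted p = 0.148) for Crabp1. Crabp2 did not pass with sex as a covariate (-1.29), and lay between -1.55 and -1.18 with a tumour left out. Aldh1a2 turned sign with limma voom (-0.46), with sex (-0.72) and with a tumour left out (-0.41 to 0.73). Leaving out a tumour also turned the sign of Rarb (-0.14 to 2.04, negative without Ivl:BRAFV600E-SOX2LSL tumour 1), Cyp26a1 (-1.12 to 0.14, positive without Ivl:BRAFV600E tumour 1) and Cyp26b1 (-0.26 to 0.084, positive without Ivl:BRAFV600E-SOX2LSL tumour 3). None of these 4 genes passed under any alternative run, and the cause of these shifts was not tested. Rarg kept its sign and did not pass in all 13 alternatives. filterByExpr removed Rarb and Cyp26a1 and gave them no value. Over all genes the median difference was 0.04 on the log2 scale, 0.03 with DESeq2 size factors and -0.06 with upper-quartile scaling. No paired analysis was possible because the columns carry no replicate numbers. Rarb and Cyp26a1 had at most 19 counts in any tumour.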

Other observations

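Some other genes of the pathway list, chosen here after their values were seen, were apart between the groups without passing the edgeR test. Lrat, which esterifies retinol for storage, had 5.12, 6.93 and 8.27 CPM in the Ivl:BRAFV600E tumours and 11.8, 40.8 and 21.2 CPM in the Ivl:BRAFV600E-SOX2LSL tumours (log2 fold change 1.86, edgeR adjusted p = 0.0639). Sdr16c5, a retinol dehydrogenase of the same family as Sdr16c6, had 69.6, 72.6 and 70.0 CPM against 8.31, 29.3 and 28.7 CPM (log2 fold change -1.68, edgeR adjusted p = 0.0727). Fabp5, a fatty acid carrier of the epidermis that also binds retinoic acid, had 3479, 4741 and 3601 CPM against 824, 1708 and 2166 CPM (log2 fold change -1.33, edgeR adjusted p = 0.0821). Per length, Fabp5 was 4.93, 6.29 and 6.16 times as abundant as Crabp2 in the Ivl:BRAFV600E tumours and 4.21, 5.16 and 7.98 times in the Ivl:BRAFV600E-SOX2LSL tumours, so this ratio overlapped between the groups. The exon length used for Fabp5 was 3567 bases and covers most of its gene (chr3:10012548-10016607). The size of the ratio may therefore be too low in every tumour. Tgm2, a transglutaminase that retinoic acid induces, had 3.92, 3.05 and 8.74 CPM against 28.1, 15.3 and 15.3 CPM (log2 fold change 1.90, edgeR adjusted p = 0.0610).

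Stra6, a membrane receptor for retinol uptake, varied widely among the Ivl:BRAFV600E-SOX2LSL tumours, with 55.4, 1.49 and 15.6 CPM beside 11.5, 11.2 and 18 CPM in the Ivl:BRAFV600E tumours. The tumour with the most Stra6, Ivl:BRAFV600E-SOX2LSL tumour 1, was also the one with the most Aldh1a3 and Crabp1. Between tumours 2 and 3 of that group, Crabp1 had the same order as Stra6 (15.8 and 21.5 CPM). Aldh1a3 had the reverse order (244 and 189 CPM). Tumour 1 also had the highest mesothelial, adipocyte, macrophage and fibroblast sums, given above.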
